A study of Mus musculus with 2 samples.

Results

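The miR-322 cluster is a run of 7 microRNA genes on the mouse X chromosome. Its members were taken by GENCODE M21 symbol (Mir322, Mir503, Mir351, Mir542, Mir450-1, Mir450-2 and Mir450b) from the 2202 microRNA genes counted, and all 7 were found in both tables. The libraries were made from RNA shorter than 30 bases. The tissue was left cerebral cortex, taken at 36 days of age from males of B6CASTF1/J, a first-generation hybrid of the B6 and CAST strains, with no treatment labelled. Both libraries belong to 1 group, so levels and the spread between the libraries can be described, and no condition, age or genotype is compared. Replicate 1 came from the animal numbered 3 and replicate 2 from the animal numbered 4. The labels give both the same donor identifier, so p-values measure only the difference between these libraries, which may be technical. Own-strand counts at microRNA genes came to 4273791 in replicate 1 and 4010274 in replicate 2. Markers of the labelled tissue were present, since 8 of 11 neuronal microRNA genes reached 10 CPM in each library, against 13.6% of all 2202 genes. CPM is the count per 1000000 own-strand counts at microRNA genes. The neuronal genes that did not reach it were those of Mir124a. Their hairpins share 22-base stretches with other loci, so their reads can fit several genes and be left out of the counts.

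A microRNA is cut from a hairpin precursor as a short RNA from its 5′ arm (5p) or 3′ arm (3p). It finds its target messages mainly through its seed, bases 2 to 8 from its 5′ end, so microRNAs with 1 seed form a family with overlapping targets. The cluster is known from growing and differentiating tissues, and its products are known to fall as organs stop growing. miR-322, the mouse counterpart of human miR-424, and miR-503 repress cell-cycle genes such as D-type cyclins and Cdc25a. Their seed is that of the miR-15/16 family or close to it, while miR-351 carries the seed of the miR-125 family. Males carry a single X chromosome, so the reads of each member come from 1 allele.

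The mature sequences of the cluster are given first because the seeds set its families and the shared sequence decides which members could be counted. All 7 genes matched RefSeq (GRCm38.p6), which lists 14 arm entries for them. Each sequence is written 5′ to 3′ with the seed in capitals.
miR-322-5p: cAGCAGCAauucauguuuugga
miR-503-5p: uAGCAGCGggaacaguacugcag
miR-351-5p: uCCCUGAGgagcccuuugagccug
miR-542-3p: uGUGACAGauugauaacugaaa
miR-450a-5p: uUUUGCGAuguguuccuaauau
miR-450b-5p: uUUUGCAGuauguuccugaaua
miR-450a-1-3p: aUUGGGAAcauuuugcauaaau
miR-450a-2-3p: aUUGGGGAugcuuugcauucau
miR-450b-3p: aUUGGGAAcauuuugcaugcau

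The capitals show relatives outside the cluster. miR-322-5p has the seed AGCAGCA, which 10 other annotated genes also carry, and 6 of those had counts. They make miR-15a, miR-15b, miR-16 (from 2 genes), miR-195a and miR-497a. miR-503-5p ends its seed in G instead, AGCAGCG, and no other mature microRNA in the RefSeq table has that seed. miR-351-5p shares CCCUGAG with miR-125a and miR-125b, and with 2 microRNAs whose genes (Mir6367 and Mir6394) had no counts. The mature sequences of these relatives are printed for comparison, again with the seed in capitals.
miR-15a-5p: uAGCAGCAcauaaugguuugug
miR-16-5p: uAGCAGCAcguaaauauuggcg
miR-195a-5p: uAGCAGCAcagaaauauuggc
miR-497a-5p: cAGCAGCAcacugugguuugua
miR-125a-5p: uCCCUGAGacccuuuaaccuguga
miR-125b-5p: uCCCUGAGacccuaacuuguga
Within the cluster, miR-450a-1-3p and miR-450b-3p share the seed UUGGGAA, and over their 22 bases they differ only by A19G and A20C (miR-450a-1-3p first, positions counted from its 5′ end). miR-450a-5p and miR-450b-5p differ at 7 of 22 positions, of which G7A and A8G lie in the seed. Outside the cluster, UUGGGAA is also the seed of miR-6352, whose gene had no counts, and the other arm of Mir542, miR-542-5p, shares its seed with miR-6966-5p, whose gene had 11 counts in replicate 1 and 10 in replicate 2.

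All members lie on the minus strand within 6353 bases (chromosome X, 53047997 to 53054349, mm10). In the order in which they are transcribed they are Mir322 (53054255 to 53054349), Mir503 (53053984 to 53054054), Mir351 (53053255 to 53053353), Mir542 (53049403 to 53049487), Mir450-2 (53048299 to 53048367), Mir450-1 (53048154 to 53048244) and Mir450b (53047997 to 53048078). Mir322 and Mir503 are 200 bases apart, and 630 bases separate Mir503 from Mir351. The widest gap, 3767 bases, lies between Mir351 and Mir542 and holds the long noncoding RNA gene Gm28730. None of the 7 lies inside another annotated gene, so no exon or intron can be named for them. The nearest gene upstream on the same strand is the noncoding C430049B03Rik, which ends 696 bases before Mir322. Plac1, a gene of the placenta, lies 15.6 kb upstream, and Hprt, a purine salvage gene, 26.3 kb away on the other side and the other strand. The closest other microRNA gene is Mir106a of the X-linked miR-106a cluster, 305 kb away, with levels of 5.38 CPM (replicate 1) and 8.73 CPM (replicate 2). On the other side it is Gm22103, 3016 kb away, which had no counts.

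**Figure D1:**
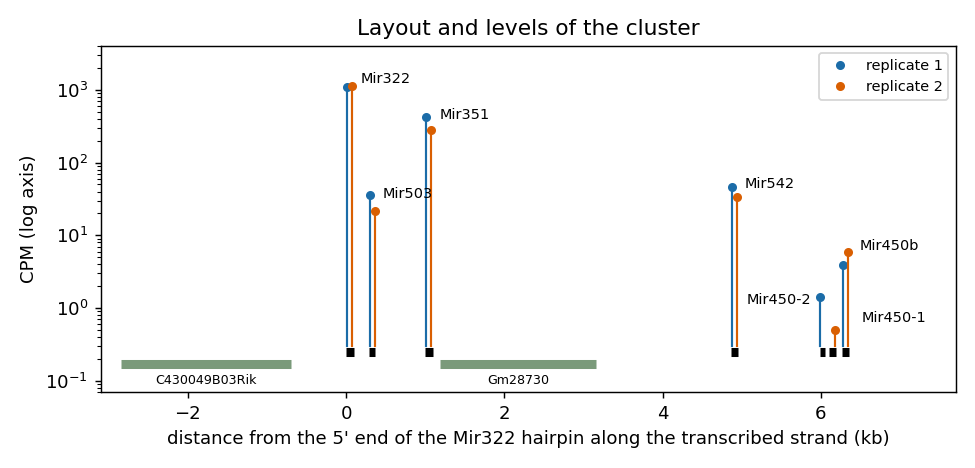
CPM (vertical log axis) of each member at its place in the cluster, as distance in kb from the 5′ end of the Mir322 hairpin along the transcribed strand (horizontal axis), with a stem for each library drawn side by side. Black bars are hairpins and green bars neighbouring noncoding genes. Mir322 and Mir351 at the 5′ end stand at 276 to 1121 CPM, and the 3 miR-450 genes at the 3′ end below 10 CPM.

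The cluster was present in the cortex at a moderate level, and nearly all of its reads came from Mir322 and Mir351. Summed over the 7 genes it reached 1591 CPM in replicate 1 (exact 95% binomial interval 1554 to 1629) and 1460 CPM in replicate 2 (1423 to 1498), or 1526 ± 92.7 CPM (SD, n = 2). That is 0.153% ± 0.00927 of the counts at microRNA genes (SD, n = 2). Intervals cover counting error only. Of the 7 members, 4 had at least 10 CPM in each library and are called detected, against 13.6% of all 2202 microRNA genes, and 2 exceeded 100 CPM. The median of the members' mean levels was 28.8 CPM. Over all microRNA genes the median was 0 CPM, since 1420 of them had no counts, and over the 300 detected genes it was 325 CPM. A read covers a mature microRNA and not the length of its gene, so levels are compared per read. Divided by hairpin length, they keep the same order.

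Mir322 stood highest, with 4626 counts (1082 CPM, exact 95% interval 1051 to 1114) in replicate 1 and 4496 counts (1121 CPM, 1089 to 1154) in replicate 2. Its mean was 1102 ± 27.4 CPM (SD, n = 2), rank 93 among all microRNA genes, and the libraries lay close together. Mir351 was the second, with 1800 counts (421 CPM) in replicate 1 and 1108 counts (276 CPM) in replicate 2, a mean of 349 ± 102 CPM and rank 147. The levels of Mir322 and Mir351 did not overlap in these libraries, and replicate 1 was the higher for Mir351.

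Mir542 and Mir503 were lower by more than a factor of 8 than Mir351 in either library, and they lay near each other. Mir542, whose 3p product is known to repress the survival gene Birc5, had 199 counts (46.6 CPM) in replicate 1 and 137 counts (34.2 CPM) in replicate 2, a mean of 40.4 ± 8.77 CPM. Mir503 had 152 counts (35.6 CPM) and 88 counts (21.9 CPM), a mean of 28.8 ± 9.63 CPM (SD, n = 2). The lower value of Mir542 lay under the higher value of Mir503, so the order of their means does not stand clear of the spread between libraries. Within each library, however, Mir503 had fewer counts than Mir542, at a ratio of 0.764 (exact 95% interval 0.614 to 0.948) in replicate 1 and 0.642 (0.486 to 0.846) in replicate 2. Mir503 lies only 200 bases from Mir322, yet Mir322 had 30.4 times its counts in replicate 1 and 51.1 times in replicate 2. Position in the cluster gave no steady gradient, since the low Mir503 sits between the 2 most abundant members.

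The miR-450 genes at the 3′ end were all under 10 CPM. Mir450b had 17 counts (3.98 CPM, exact 95% interval 2.32 to 6.37) in replicate 1 and 24 counts (5.98 CPM, 3.83 to 8.90) in replicate 2, a mean of 4.98 ± 1.42 CPM (SD, n = 2). Mir450-2 had 6 counts in replicate 1 and 0 in replicate 2. Mir450-1 had 0 counts in replicate 1 and 2 in replicate 2. The limit that 0 counts leave was taken as 3 counts, which is 0.702 CPM for replicate 1 and 0.748 CPM for replicate 2. The exact 95% interval at 0 counts reaches higher, to 0.863 CPM (replicate 1) and 0.920 CPM (replicate 2). No fold between these libraries is therefore given for either gene. No opposite-strand counts were recorded at any member, and the unstranded counts equalled the own-strand counts at all 7.

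**Figure D2:**
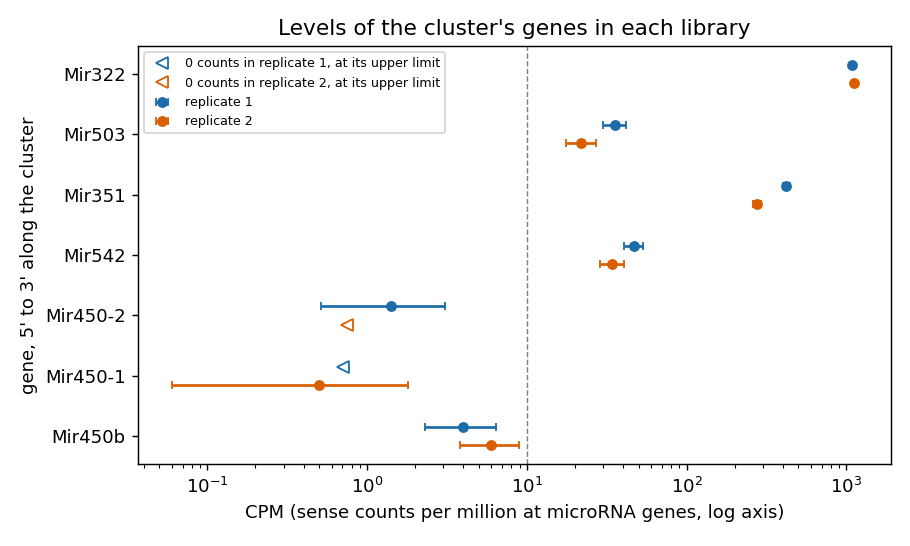
CPM (horizontal log axis) of the 7 members, ordered 5′ to 3′ along the cluster, in each library with exact 95% binomial intervals. Open triangles mark 0 counts, drawn at the level of 3 counts and not at the end of an exact interval. The dashed line marks 10 CPM. Mir322 lies at 1082 and 1121 CPM, Mir450b at 3.98 and 5.98 CPM.

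The hairpins of the 2 miR-450a genes show why their counts have to be read with care. They are printed with both mature arms in capitals, with Mir450b beside them, from the GENCODE M21 transcripts.
Mir450-1: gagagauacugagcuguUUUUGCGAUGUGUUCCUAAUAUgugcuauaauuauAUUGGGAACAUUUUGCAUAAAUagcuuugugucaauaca
Mir450-2: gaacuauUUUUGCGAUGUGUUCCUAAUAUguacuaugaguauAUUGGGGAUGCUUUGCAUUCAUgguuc
Mir450b: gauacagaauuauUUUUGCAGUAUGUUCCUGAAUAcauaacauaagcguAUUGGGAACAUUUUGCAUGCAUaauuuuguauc
The 5p arm is the same miR-450a-5p in Mir450-1 and Mir450-2, and the hairpins share an unbroken stretch of 25 bases around it. A read of that arm fits both genes, and reads that fit several places are entered as multi-mapped, apart from the gene counts. The multi-mapped class held 42.8% (replicate 1) and 39.9% (replicate 2) of the sequenced reads, and how many of them were miR-450a-5p was not tested. Their 3p arms, which differ at 6 of 22 positions, can be told apart. So the counts of 0 to 6 at these genes are no measure of miR-450a-5p. Mir450b shares no stretch of 22 bases with any other annotated microRNA hairpin. It does share an unbroken stretch of 19 bases with Mir450-1, in the 3p arm. Shortened reads of that arm could fit both genes, and how far this bears on the low count of Mir450b was not tested. Mir322, Mir503, Mir351 and Mir542 share no stretch of 22 bases with any other annotated microRNA hairpin either. Such a stretch is shared by 49.1% of all microRNA genes and by 75 of the 300 detected ones. Stretches were matched on both strands, so genes that overlap on opposite strands are counted there too.

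The miR-450 hairpins also differed from the others in base composition. GC content was 30.5% for Mir450b, 33.0% for Mir450-1 and 36.2% for Mir450-2. The 4 detected members lay between 50.5% (Mir351) and 54.9% (Mir503), near the median of 50.9% over detected microRNA genes. Predicted folding energy followed that divide only in part. Per 100 bases it was -38.8 kcal/mol for Mir450b, -38.4 for Mir450-2 and -45.1 for Mir450-1. Among the detected members it was -53.0 for Mir503, -45.2 for Mir322, -44.8 for Mir542 and -37.7 for Mir351, against a median of -43.7 over detected genes. These are descriptions over 7 hairpins of 1 locus, and their part in the counts was not tested.

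Between the libraries the members did not move as 1 unit. Mir351, Mir503 and Mir542 were lower in replicate 2, while Mir322 was slightly higher there. Every gene whose counts in both libraries came to at least 10 was compared by an exact two-sided binomial test at the TMM library sizes of edgeR, with Benjamini-Hochberg adjustment over all 516 genes tested. The test compares the libraries, not conditions. Of the 5 members tested, 3 were lower in replicate 2, against 30.4% of all genes tested, and 1 was higher, against 27.5%. The median log2 ratio of the 5 members, replicate 2 over replicate 1, was -0.41, and over all genes tested it was -0.04.

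Mir351 had a log2 ratio of -0.57 (exact 95% interval -0.68 to -0.46, adjusted p = 7.66e-25 in the exact binomial test). For Mir503 the log2 ratio was -0.66 (-1.05 to -0.27, adjusted p = 0.00134, same exact test), and for Mir542 it was -0.41 (-0.73 to -0.09, adjusted p = 0.0223, same exact test). These differences exceeded counting error, but differences of such sizes were common between the libraries. For the 309 genes whose counts came to at least 100, the absolute log2 ratio had a median of 0.46. The absolute log2 ratio was smaller than that of Mir351 in 57.6% of those genes, than that of Mir503 in 65.4% and than that of Mir542 in 41.4%.

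Mir322 had a log2 ratio of 0.09 (0.03 to 0.15, adjusted p = 0.00540 in the exact binomial test), and only 13.3% of those genes had a smaller absolute ratio. Its call rested on the scaling. Against total counts the log2 ratio was 0.05 (-0.01 to 0.11, adjusted p = 0.148, exact binomial test), and against all reads 0.00225 (-0.06 to 0.06, adjusted p = 0.980, same exact test). With the unstranded counts the adjusted p was 0.0825 in the exact binomial test. Mir450b had a log2 ratio of 0.63 with an interval of -0.33 to 1.62 (adjusted p = 0.284, exact binomial test), so the difference did not pass the test at 17 and 24 counts. Mir450-1 and Mir450-2 had too few counts to test. Summed over the cluster, the log2 ratio was -0.08 (-0.13 to -0.03).

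**Figure D3:**
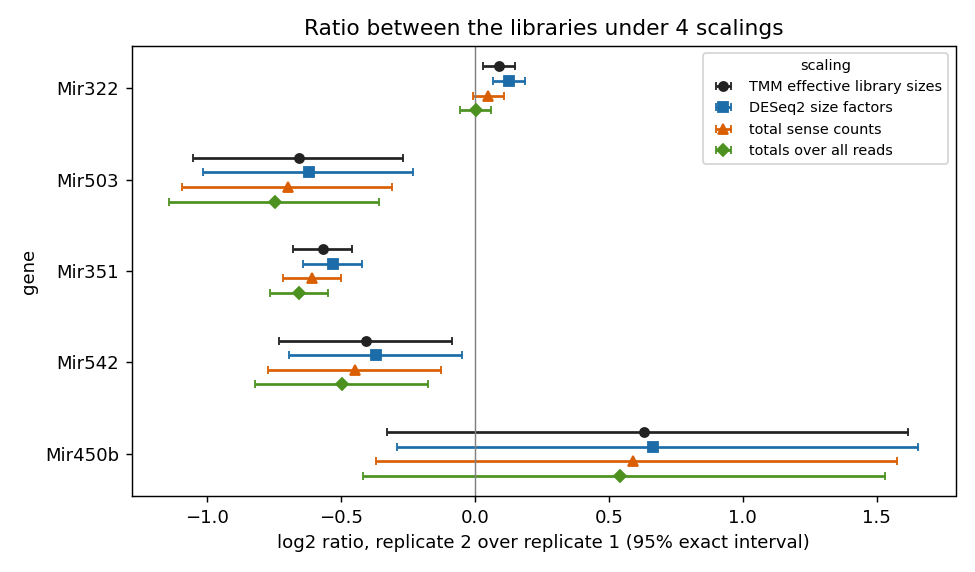
log2 ratio of replicate 2 over replicate 1 (horizontal axis) for the 5 members with 10 or more counts together, with exact 95% intervals, under 4 scalings of the libraries (symbols). Mir351, Mir503 and Mir542 lie below 0 with their whole intervals under each of the 4, and Mir322 lies between 0.00225 and 0.13.

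Ratios of members within a library use no library size, and they were chosen after the values were seen, so they are given without a test. Mir322 had 2.57 times the counts of Mir351 in replicate 1 (exact 95% interval 2.43 to 2.72) and 4.06 times in replicate 2 (3.80 to 4.34), intervals that do not overlap. The ratio of Mir351 to Mir503 was 11.8 (10.03 to 14.1) in replicate 1 and 12.6 (10.1 to 15.8) in replicate 2. That of Mir351 to Mir542 was 9.05 (7.81 to 10.5) and 8.09 (6.77 to 9.73). The intervals of the last 2 ratios overlap between the libraries, so Mir351, Mir503 and Mir542 kept similar proportions within counting error, and Mir322 took a different share beside them. As shares of the cluster, Mir322 gave 68.0% (66.9 to 69.1) in replicate 1 and 76.8% (75.7 to 77.9) in replicate 2, and Mir351 26.5% (25.4 to 27.5) and 18.9% (17.9 to 20.0). Mir542 gave 2.93% and 2.34%, Mir503 2.24% and 1.503%, and Mir450b 0.250% and 0.410%.

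Unequal ratios inside a cluster were common in these libraries. From the lowest to the highest log2 ratio among members with 100 or more counts, the cluster spanned 0.75 over 4 genes. Among 36 other clusters of neighbouring microRNA genes (within 10 kb on 1 strand, at least 2 genes with that many counts) the median span was 0.90, and 22 of them spanned more. Of the 9 clusters with 3 to 5 such genes, 8 spanned more. On the X chromosome, the pair Mir221 and Mir222, which act in proliferating and vascular cells, had log2 ratios of 0.60 and -0.12. In the cluster within the Clcn5 gene, the most abundant members went apart, with log2 ratios of 0.73 for Mir532 and -0.73 for Mir501.

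Set beside the genes whose 5p arm has the same seed, Mir322 held a sizeable part of the gene counts and Mir351 a small one. A gene's count holds reads of both arms, so these are shares of gene counts and not of reads that carry the seed. The 6 counted genes of the miR-15/16 family, which restrains the cell cycle and is abundant in mature tissues, summed to 3666 CPM (replicate 1) and 2099 CPM (replicate 2). The most abundant were Mir195a, at 1387 and 415 CPM, and Mir497, at 865 and 689 CPM, neighbours on chromosome 11. Mir15a stood at 570.0 and 427 CPM, Mir16-1 at 372 and 283 CPM, Mir15b at 369 and 245 CPM, and Mir16-2 at 103 and 40.4 CPM. In replicate 1 Mir322 lay between Mir195a and Mir497, and in replicate 2 above all 6. Taken with these genes, it made up 22.8% of the gene counts (exact 95% interval 22.2 to 23.4) in replicate 1 and 34.8% (34.0 to 35.6) in replicate 2.

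All 6 miR-15/16 genes were lower in replicate 2 (adjusted p under the 0.05 threshold, exact binomial test, against the same 30.4% of genes tested), with log2 ratios from -1.70 (Mir195a) to -0.29 (Mir497) and a median of -0.46. The 6 were lower under each of the other scalings too. With unstranded counts 5 could be tested and all 5 were lower, since Mir497 overlaps Mir497b on the opposite strand. Mir16-1 and Mir16-2 make the same mature sequence, so reads of it fit both genes, as for miR-450a-5p, and how far this moves the share of Mir322 was not tested.

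For miR-351 the relatives were far more abundant. Mir125a, whose product is known from neural tissue and immune cells, had 17043 CPM (replicate 1) and 9714 CPM (replicate 2). Mir125b-1 reached 817 and 1272 CPM and Mir125b-2 313 and 182 CPM, and these 2 genes make the same miR-125b-5p. Reads of that arm fit both genes and would be multi-mapped, so the counts of the pair may leave them out, and how far this moves the values that follow was not tested. Beside the 3 genes, Mir351 made up 2.27% (2.16 to 2.37) of the gene counts in replicate 1 and 2.41% (2.28 to 2.56) in replicate 2, and the intervals overlap. Its log2 ratio of -0.57 lay near those of Mir125a (-0.77) and Mir125b-2 (-0.75), while Mir125b-1 went the other way (0.68).

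**Figure D4:**
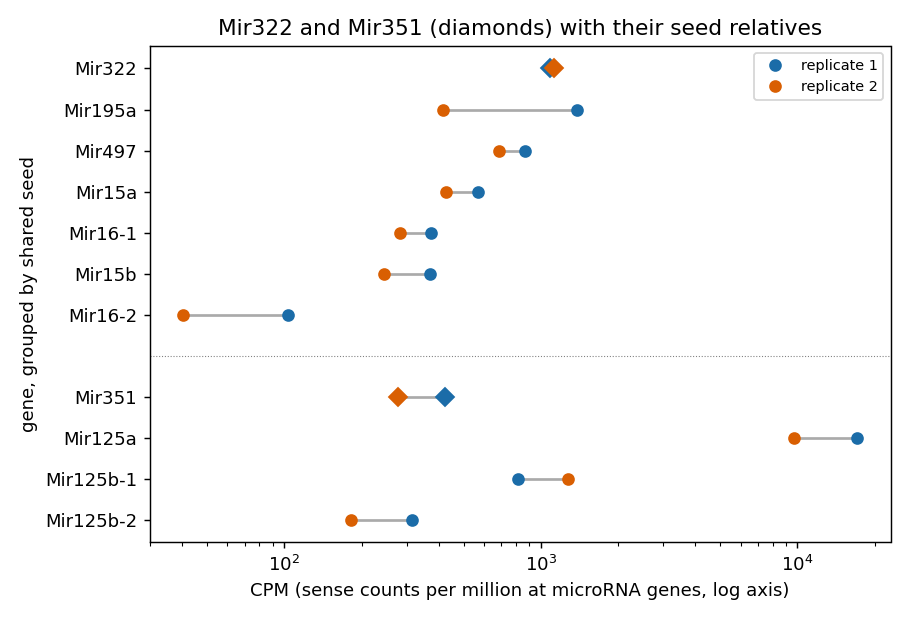
CPM (horizontal log axis) of Mir322 and of the 6 miR-15/16 genes with its seed (above the dotted line), and of Mir351 and the 3 miR-125 genes (below it), with a point for each library joined by a line. All 6 miR-15/16 genes lie lower in replicate 2, while Mir322 lies at 1082 and 1121 CPM. Mir125a, at 17043 and 9714 CPM, stands far above Mir351.

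Among microRNA genes on the X chromosome, Mir322 ranked 7 of 142 by mean CPM, Mir351 12, Mir542 22 and Mir503 23. The ranks of Mir322 and Mir222 (1003 ± 76.6 CPM, SD, n = 2) are adjacent, and Mir322 was the higher in both libraries. Of the 135 X-linked genes outside the cluster, 26 were detected and 84 had no counts, and Mir652 (13744 ± 5429 CPM, SD, n = 2) and Mir221 (6444 ± 1759 CPM) led them. The cluster's sum of 1526 CPM was near that of the 5 counted genes of the Clcn5 cluster, at 1446 and 1515 CPM in replicates 1 and 2, and below that of Mir221 and Mir222, at 6257 and 8636 CPM. Other microRNAs of proliferation, the 15 genes of the miR-17 and miR-106b related clusters, had 8 members detected and summed to 2858 and 3584 CPM, led by Mir93 at 1519 ± 448 CPM and Mir17 at 666 ± 141 CPM (SD, n = 2). Of their 11 tested genes 4 were higher and 3 lower in replicate 2, beside 27.5% and 30.4% of all genes tested, with a median log2 ratio of 0.13. Some of the 15 share 22-base stretches with another locus, so their counts may leave out multi-mapped reads. Of the growth-linked imprinted microRNAs, Mir483, inside the growth factor gene Igf2, stood at 108 and 106 CPM, and Mir675, made from H19, had no counts.

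By the distance of log2(CPM + 1) over both libraries, the genes most like Mir322 were Mir540 (1083 and 1135 CPM in replicates 1 and 2), Mir431 (1147 and 1249 CPM) and Mir222 (1057 and 949 CPM). Those most like Mir351 were Mir16-1 (372 and 283 CPM), Mir665 (438 and 235 CPM) and Mir15b (369 and 245 CPM). With 2 libraries such likeness rests on 2 points per gene.

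Cortex tissue holds several cell types, and in bulk RNA fewer cells of a type and less RNA per cell cannot be told apart. The summed levels of marker lists differed between the libraries too. The 11 neuronal genes summed to 92140 CPM (replicate 1) and 60964 CPM (replicate 2), with Mir124a-2 at 0 counts in both. Mir132, at 54937 and 30022 CPM, gave most of that difference. Of the 10 neuronal genes tested, 6 were lower in replicate 2, against 30.4% of all genes tested. Another 3 (Mir138-1, Mir138-2 and Mir383) were higher, near the 27.5% of all genes tested. The 3 oligodendrocyte genes summed to 5098 and 3543 CPM, the 2 endothelial genes to 11394 and 10799 CPM (Mir126b at 0 counts), and the 2 mural genes to 5178 and 7691 CPM. The 9 striated muscle genes summed to only 80.5 and 29.9 CPM, with 1 detected. Mir1a-1, Mir133a-2 and Mir133b had 0 counts in both libraries. The 4 red-cell genes summed to 83.5 and 794 CPM (Mir451b at 0 counts), the 6 microglial and leukocyte genes to 2230 and 2066 CPM, and the 2 choroid plexus genes to 458 and 391 CPM. Hairpins of the 3 Mir124a genes, of Mir1a-1 and Mir1a-2, and of Mir133a-1 and Mir133a-2 share 22-base stretches with another locus. Reads of these microRNAs can thus be multi-mapped, and their low or 0 counts are no measure of them. Hairpins of Mir128-1, Mir128-2, Mir138-1, Mir138-2, Mir219a-1 and Mir219a-2 share such stretches too. Their counts may leave reads out, and how far this moves the sums and ratios was not tested. Shared stretches, matched on both strands, were also found for Mir338, Mir142, Mir486, Mir126a, Mir126b, Mir451a and Mir451b. Mir126a and Mir126b overlap on opposite strands, as do Mir451a and Mir451b. What such stretches do to these counts was not tested either. The sums of 6 lists (neuron, oligodendrocyte, endothelium, microglia and leukocyte, striated muscle, choroid plexus) were lower in replicate 2. The mural and red-cell sums were higher. The 4 striated muscle genes tested were all lower in replicate 2, with log2 ratios from -3.26 (Mir208b) to -0.52 (Mir206). Genes within several other lists did not all move together. Mir143 was called higher (log2 ratio 0.65) and Mir145a lower (-0.42). Mir451a (3.99) and Mir144 (2.26) were higher, while Mir486 was not called (-0.18). Of the 6 microglial and leukocyte genes, 2 were higher and 2 lower, beside 27.5% and 30.4% of all genes tested. Among them Mir223 went from 70 counts in replicate 1 to 2 in replicate 2 (log2 ratio -5.00). The 2 higher ones were Mir146 (0.19) and Mir155 (0.27). Mir126a, the only endothelial gene with counts, stood at -0.04, near the median over all genes tested. The part of these lists in the members' ratios was not tested.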

How the data were processed

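The authors deposited 1 table of whole-number counts per microRNA gene for each library, not normalized, mapped to mm10 with GENCODE M21, per the text files beside them. The aligner and counter were not given in the sources used here. Columns were read as unstranded, own-strand and opposite-strand counts, from their values, and the own-strand column was used. Entries that name no gene (64.0% and 65.2% of all reads in replicates 1 and 2) stayed out of totals and tests. A gene's count sums its 5p and 3p arms.

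CPM was computed over own-strand counts. Library sizes came from edgeR 4.0.16 (TMM over genes with 10 or more counts together) and, as an alternative, DESeq2 1.42.0, in R 4.3.3. With 1 sample on each side the comparison was an exact binomial test, which covers counting error only. It was tested on simulated counts that held counting error alone. That simulation cannot show how the test behaves under other spread between libraries. Folding energies came from RNAfold 2.7.2, other computations from Python 3.11.15 and SciPy 1.17.1. Named were the members, their seed relatives, the closest microRNA gene on each side, the leading 2 genes of every non-marker list, and the 3 genes nearest in level to Mir322 and to Mir351. Individual marker genes and Mir6352, Mir6367, Mir6394 and miR-6966 were named after their values were seen. Members, lists and tests were chosen with earlier results of these data known. Alternatives were other scalings, minimum counts and CPM, unstranded counts, other pseudocounts and each library alone.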

Additional observations from a re-analysis of the deposited data

Results flagged for a closer look

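Reads that the comparisons do not use were looked at because their number exceeds the limit that 0 counts leave. The multi-mapped class, into which reads of the shared miR-450a-5p arm would fall, held 42.8% (replicate 1) and 39.9% (replicate 2) of the sequenced reads.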

How the results depend on the processing

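The cluster's sum of 1526 CPM became 540 per 1000000 of all reads, 1712 CPM without the most abundant gene in the totals and 1645 CPM with unstranded counts, where the change lies in the totals, since the members' own counts were the same. Without Mir322, an alternative chosen after seeing the data, it was 424 CPM. With 1 library left out it ranged from 1460 to 1591 CPM, and the share of Mir322 from 68.0% to 76.8%. At 100 CPM or more 2 members were detected in place of 4. The 3 members lower in replicate 2 were called under all 6 alternatives of scaling, filter and strand. The alternatives of minimum counts keep the same counts and library sizes, so only the adjustment of p-values changes there. The 1 called higher, Mir322, was called in 3 of the 6, namely DESeq2 sizes and both alternatives of minimum counts. With total counts, totals over all reads or unstranded counts, 0 members were called higher. Over all genes, 121 to 150 were called higher and 132 to 177 lower. The 6 genes of like level were the same with both other pseudocounts. No paired analysis was possible because there is 1 group. Depth limits the miR-450 genes most, at 24 counts or fewer.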
